A study of Mus musculus with 18 samples.

Results

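Semaphorins, Slits and netrins are the secreted or membrane-bound ligands of axon guidance, and plexins, neuropilins, Robos and Unc5 proteins are their receptors. The genes described here are the rows of the deposited count table whose identifier maps to a mouse symbol of one of these families, written as Sema3 to Sema7, Plxn, Nrp, Slit, Robo, Ntn and Unc5. They number 45 of 21647 rows: 20 semaphorins, 9 plexins, 2 neuropilins, 3 Slits, 4 Robos, 3 netrins and 4 Unc5 genes. Ntn3 was not analysed here. Enough reads for a test were found for 40 of the 45. Sema6d, Robo4, Unc5a, Unc5d and Ntn5 had 1, 1, 2, 8 and 56 reads over all 18 libraries and were not tested.

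Poly(A) RNA was sequenced from cultured mouse cells that the labels call embryonic aortic endothelial cells. The orpk cells came from Tg737orpk/orpk mice, which carry an insertion mutation in both copies of Ift88, a gene needed to build the primary cilium. The WT cells came from wild-type mice. Cells of each genotype were grown to confluence on gelatin and serum starved for 24 h, and were then kept static or placed under a laminar shear stress of 2 or 30 dyn/cm² for 48 h. The 6 groups (orpk static, orpk 2, orpk 30, WT static, WT 2 and WT 30 dyn/cm²) held 3 libraries each. Nothing in the labels says that the 3 libraries of a group came from separate animals or isolations, so the p-values here cover the spread among libraries, which may be technical. For the same reason a difference between isolates cannot be told apart from one between genotypes, and the labels give no age of the embryos.

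Library totals ran from 13626480 to 17387553 counts. Ift88, the mutated gene, had a counts-per-million (CPM) value of 6.37 to 8.46 in the orpk libraries, against 12.8 to 17.4 CPM in the WT libraries, with log2 fold changes of -0.99, -0.91 and -0.95 at static, 2 and 30 dyn/cm². At 2 dyn/cm² orpk replicate 2 and WT replicate 1 stood apart from their groups, since chi-square over its degrees of freedom was 3.40 and 3.80 between the orpk library and the other orpk libraries (1.58 between those) and 6.35 and 7.76 between the WT library and the other WT libraries (1.44 between those). Markers of the labelled cell type were low or absent. The 14 endothelial markers summed to 17.4 to 22.7 CPM in orpk and 11.1 to 14.3 CPM in WT libraries, Cdh5 and Erg had no read in any WT library, and Sox17 had no read in any library. Egfl7 made up most of the WT sum (10.9 CPM in WT static and 4.25 CPM in orpk static cells). Of the 9 tested, 7 were higher and 2 lower in static orpk than in static WT cells, where 44.4% and 43.4% of all tested genes were. The 8 fibroblast markers summed to 20510 to 32678 CPM in orpk and 710 to 1150 CPM in WT. Col1a1 and Col1a2 made up most of the orpk sum (means of 10140 and 19314 CPM in static cells). Col1a1 made up most of the WT sum (992 CPM in static cells). The 8 smooth muscle and pericyte markers summed to 1507 to 4431 CPM in orpk and 51.9 to 134 CPM in WT. The 9 epithelial and mesothelial markers summed to 158 to 301 CPM in orpk and 356 to 575 CPM in WT. Their direction was mixed, since 2 of the 8 tested were higher and 6 lower in static orpk than in static WT cells. Over all tested genes 44.4% were higher and 43.4% lower. Krt8 had means of 0.332 CPM in orpk static and 149 CPM in WT static cells, and Msln had 198 and 94.6 CPM. The 9 neural and glial markers summed to 117 to 308 CPM in orpk and 54.2 to 107 CPM in WT, and the 7 macrophage and leukocyte markers to 13.2 to 25.7 CPM in orpk and 17.5 to 57.4 CPM in WT. The part of these cell type markers in the differences described here was not tested. In bulk RNA, fewer cells of a type and less RNA per cell cannot be told apart.

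Guidance proteins were named for their role in steering axons, and many also act on vessels. A class 3 semaphorin is secreted and mostly acts through a neuropilin joined to a plexin A or plexin D1, whereas semaphorins of classes 4 to 7 are held in the membrane and mostly bind plexins directly. Neuropilins also bind vascular endothelial growth factors, which places them in both semaphorin and growth factor signalling. Slits act through Robo receptors, and netrins act through Dcc, neogenin and the Unc5 receptors. In endothelium, Sema3e signalling through plexin D1, netrin signalling through Unc5b, and Robo4 are known for their roles in vessel sprouting and stability.

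Plexin transcripts exceeded semaphorin transcripts in static cells of both genotypes, and the most abundant plexin was the same in both. Levels were compared between genes as CPM per kilobase of exon. Plxnb2, a receptor for class 4 semaphorins, had the highest level of the 45 genes in all 6 groups, with means of 94.4, 116 and 103 per kilobase in orpk cells at static, 2 and 30 dyn/cm², and 98.2, 73.0 and 67.5 in WT cells. The 9 plexins summed to 192 ± 4.53 CPM per kilobase in orpk static and 186 ± 2.32 in WT static cells (SD, n = 3 each, as for every mean given here). The 7 class 3 semaphorins summed to 60.4 ± 1.27 in orpk static and 85.8 ± 2.04 in WT static cells, and the 13 membrane semaphorins to 31.5 ± 0.403 in orpk static and 55.2 ± 1.33 in WT static cells.

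Neuropilins and Slits separated the genotypes more. The neuropilins summed to 56.5 ± 1.99 CPM per kilobase in orpk static cells and 18.8 ± 1.60 in WT static cells, and the Slits to 43.7 ± 0.726 in orpk and 1.18 ± 0.0227 in WT static cells. Robo transcripts were scarce beside those of their ligands, at 0.843 ± 0.0419 CPM per kilobase in orpk static and 0.00960 ± 0.0166 in WT static cells. Robo4, the Robo of mature endothelium, had 1 read in all. In orpk static cells the next genes after Plxnb2 were Plxna1 (42.4 CPM per kilobase), Slit3 (38.7), Nrp2 (36.9) and Plxnd1 (30.4). In WT static cells they were Plxna1 (33.0), Sema3f (24.3), Sema3e (21.7) and Plxnb1 (18.7).

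**Figure D1:**
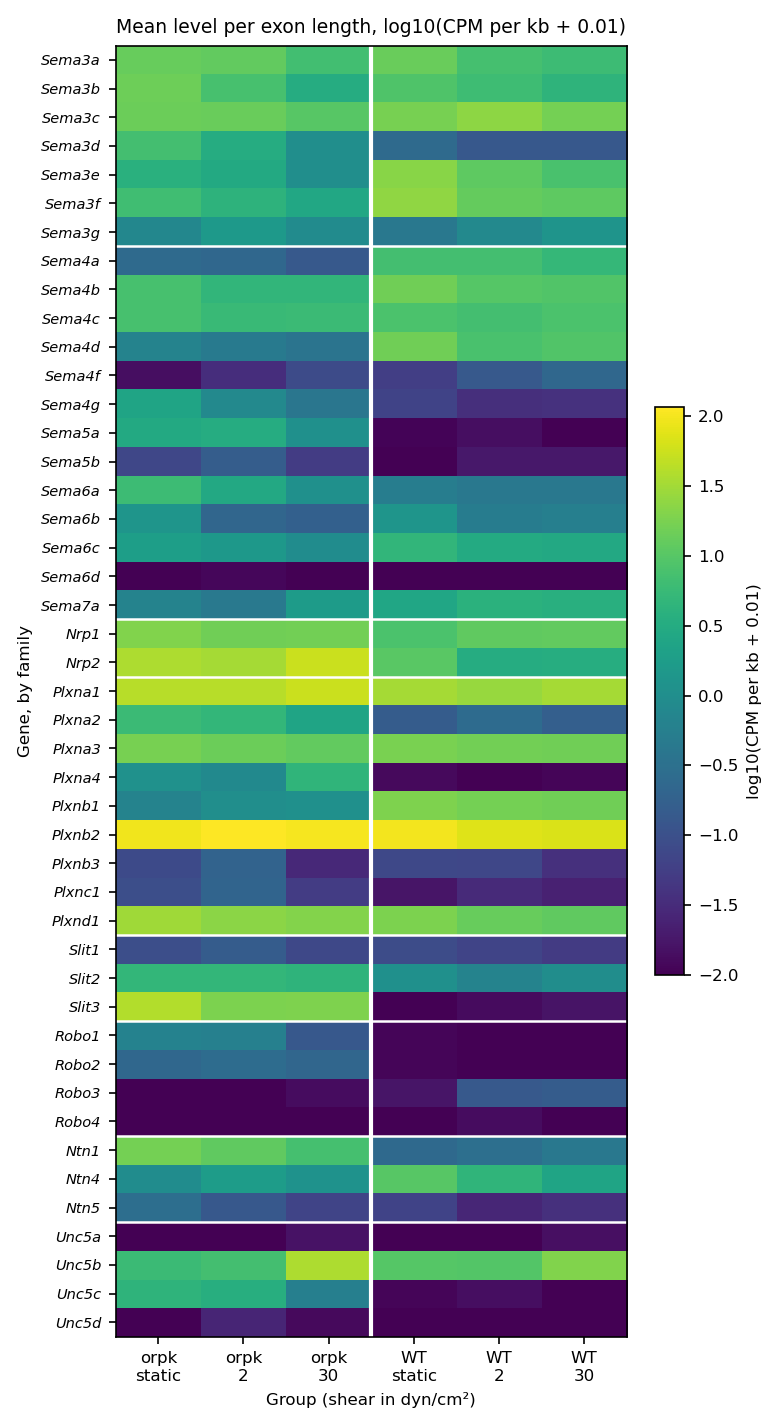
Mean level of each of the 45 guidance genes in the 6 groups, as log10 of CPM per kilobase of exon plus 0.01, with genes in rows by family and groups in columns (orpk left, WT right, shear in dyn/cm²). Plxnb2 is the brightest row in every group, while Slit3, Sema5a, Plxna4 and Unc5c are bright or mid-range in orpk and dark in WT.

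The first comparison asks how cells with the Ift88 mutation respond to high shear. At 30 dyn/cm² against static culture, most semaphorin ligands fell, and the netrin receptors moved apart, with Unc5b rising 6.14-fold and Unc5c falling 7.80-fold. Of 40 genes 33 passed the threshold, with 8 up and 25 down, where 69.9% of all 13058 tested genes passed, 36.5% higher and 33.3% lower. The groups did not overlap in 34 (73.3% of all tested genes). A change of over 1 on the log2 scale was called in 19 of the 40, where 14.3% of all tested genes had one. The median log2 fold change was -0.66 over the 40 genes and 0.02 over all tested genes. The threshold throughout is an adjusted p under 0.05 in edgeR's quasi-likelihood test. Smooth muscle and pericyte markers summed to 4335 to 4431 CPM at 30 dyn/cm² and 1507 to 1631 CPM in static orpk cells, neural and glial markers to 296 to 308 and 117 to 128 CPM, and fibroblast markers to 26490 to 28147 and 31666 to 32678 CPM. Of the 8 fibroblast markers 6 fell and 1 rose, against the shares of all tested genes above. Pdgfra had means of 149 CPM at 30 dyn/cm² and 1775 CPM in static cells, and Thy1 had 79.1 and 37.1 CPM. Epithelial and mesothelial markers summed to 183 to 186 and 297 to 301 CPM, and macrophage and leukocyte markers to 13.2 to 13.6 and 21.6 to 25.7 CPM. Their part in these changes was not tested.

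Among the class 3 semaphorins of orpk cells, 6 of 7 fell at 30 dyn/cm² and 0 rose. Sema3d (ENSMUSG00000040254, chr5:12383385-12588948, plus strand), a secreted ligand with roles in heart and vein development, had 7.72, 9.57 and 8.68 CPM at 30 dyn/cm², against 61.7, 58.1 and 62.7 CPM in static cells. Its log2 fold change was -2.81 ± 0.08 (SE, edgeR adjusted p = 6.12e-29). The sheared libraries all lay far below the static ones. Sema3e (ENSMUSG00000063531, chr5:14025276-14256689, plus strand), which binds plexin D1 without a neuropilin, had 9.36, 9.29 and 9.22 CPM at 30 dyn/cm² and 35.7, 34.7 and 35.0 CPM in static cells (log2 fold change -1.92 ± 0.07, adjusted p = 7.10e-25). Sema3b, a ligand also studied as a tumour suppressor, had 16.6, 14.9 and 16.2 CPM at 30 dyn/cm² and 70.5, 70.0 and 69.7 CPM in static cells (log2 fold change -2.14 ± 0.08, adjusted p = 1.76e-25). In neither gene did the groups overlap. Sema3f, a neuropilin 2 ligand, Sema3a, a neuropilin 1 ligand, and Sema3c fell by less, by 1.28, 0.93 and 0.49 on the log2 scale. Sema3g had a log2 fold change of 0.24 ± 0.18 and did not pass (edgeR adjusted p = 0.245).

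Membrane semaphorins of orpk cells fell in 9 of 12 tested genes and rose in 2. The transmembrane ligand Sema6a, which binds plexins A2 and A4, had 8.76, 9.79 and 9.77 CPM at 30 dyn/cm² and 54.6, 53.4 and 51.9 CPM in static cells (log2 fold change -2.50 ± 0.08, edgeR adjusted p = 1.22e-28). Its relatives Sema6b and Sema6c changed by -2.92 and -1.05 (log2), and Sema4g by -2.61. Sema5a, a transmembrane semaphorin with thrombospondin repeats, had 21.3, 20.3 and 19.4 CPM at 30 dyn/cm² and 55.9, 54.3 and 56.1 CPM in static cells (log2 fold change -1.44 ± 0.07). Sema4b, a plexin ligand of class 4, had 27.3, 27.9 and 24.6 CPM at 30 dyn/cm² and 42.4, 45.3 and 43.3 CPM in static cells (-0.71 ± 0.07). Every sheared library of these genes lay below every static one. Sema7a (ENSMUSG00000038264, chr9:57940112-57962865, plus strand), a lipid-anchored semaphorin that binds plexin C1 and beta 1 integrin, went the other way. It had 5.54, 5.79 and 5.66 CPM at 30 dyn/cm² and 1.93, 1.81 and 2.71 CPM in static cells, a rise of 2.65-fold (log2 fold change 1.41 ± 0.18, edgeR adjusted p = 6.03e-09). The other gene that rose, Sema4f, had 16 reads over the 3 sheared and 1 read over the 3 static libraries, a ratio of 17.2 (95% exact interval for counting error 2.67 to 719.6).

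Semaphorin receptors of orpk cells did not move as a group at 30 dyn/cm², with 4 of 9 plexins higher and 4 lower, and 1 neuropilin in each direction. Plxna4 (ENSMUSG00000029765, chr6:32144268-32588192, minus strand), a plexin that pairs with neuropilin 1, had 63.1, 64.4 and 62.7 CPM at 30 dyn/cm² and 15.9, 16.1 and 14.9 CPM in static cells, a rise of 4.04-fold (log2 fold change 2.02 ± 0.07, edgeR adjusted p = 5.80e-25). Plxna2 had 39.1, 41.5 and 40.0 CPM at 30 dyn/cm² and 95.9, 102 and 102 CPM in static cells (log2 fold change -1.31 ± 0.06). These 2 plexins, which bind Sema6a, moved in opposite directions. Plxnd1, the Sema3e receptor, fell by 0.60 on the log2 scale. Nrp2 (ENSMUSG00000025969, chr1:62703285-62818695, plus strand), which binds Sema3f and vascular endothelial growth factor C, had 636, 659.7 and 646 CPM at 30 dyn/cm² and 460.5, 433 and 416 CPM in static cells (log2 fold change 0.57 ± 0.05, adjusted p = 1.99e-12), and Nrp1 fell by 0.31.

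A netrin ligand and both measured Unc5 receptors of orpk cells changed. Unc5b (ENSMUSG00000020099, chr10:60762593-60831581, minus strand), the netrin receptor of endothelium, had 226, 226 and 229.7 CPM at 30 dyn/cm², against 40.9, 32.7 and 37.7 CPM in static orpk cells (log2 fold change 2.62 ± 0.06, edgeR adjusted p = 5.03e-26). Unc5c (ENSMUSG00000059921, chr3:141465216-141834924, plus strand), another netrin receptor of the same family, had 10.6, 10.4 and 11.5 CPM at 30 dyn/cm² and 82.8, 81.6 and 89.3 CPM in static cells (log2 fold change -2.96 ± 0.07, adjusted p = 2.96e-31). Both receptors had libraries far outside the range of the other group, Unc5b above and Unc5c below. The ligand Ntn1 (ENSMUSG00000020902, chr11:68209364-68400823, minus strand) had 47.9, 45.9 and 46.0 CPM at 30 dyn/cm² and 102, 101 and 100.0 CPM in static cells (log2 fold change -1.12 ± 0.05), so it was lower in every sheared library. Ntn4, a netrin of basement membranes, had a log2 fold change of 0.33 ± 0.16 and did not pass (adjusted p = 0.0597).

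Of the Slits and Robos in orpk cells, Slit3 (ENSMUSG00000056427, chr11:35121224-35708507, plus strand) had 109, 116 and 122 CPM at 30 dyn/cm² and 237, 237 and 230.4 CPM in static cells (log2 fold change -1.02 ± 0.05, edgeR adjusted p = 2.87e-16). Robo1, a receptor for Slits, had 2.25, 1.64 and 2.25 CPM at 30 dyn/cm² and 10.8, 10.2 and 9.88 CPM in static cells (log2 fold change -2.33 ± 0.15, adjusted p = 3.29e-16). Ligand and receptor were thus both lower under shear. Slit2 fell by 0.17 on the log2 scale, and Robo2 (-0.04 ± 0.18) and Slit1 (-0.35 ± 0.49) missed the threshold (edgeR adjusted p = 0.856 and 0.532).

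The start regions of 7 of the genes that changed by over 1 on the log2 scale in orpk cells at 30 dyn/cm² are shown, so that the 2 that rose (Unc5b and Sema7a) can be set beside 5 that fell. They are RefSeq windows on GRCm38.p6 of the 250 bases before the annotated start, read 5′ to 3′ on the gene's strand, of genes with at least 5 CPM in some group and a window free of annotated exons. The Robo1 window lies before an internal start of that gene. Capitals mark GCGTG, 1 of 4 short motifs searched on both strands.
Unc5b (chr10:60831582-60831831, minus strand): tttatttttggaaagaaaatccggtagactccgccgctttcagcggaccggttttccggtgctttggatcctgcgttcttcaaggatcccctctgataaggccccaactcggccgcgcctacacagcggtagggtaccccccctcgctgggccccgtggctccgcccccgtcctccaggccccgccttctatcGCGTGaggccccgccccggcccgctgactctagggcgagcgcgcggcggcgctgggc
Sema7a (chr9:57939862-57940111, plus strand): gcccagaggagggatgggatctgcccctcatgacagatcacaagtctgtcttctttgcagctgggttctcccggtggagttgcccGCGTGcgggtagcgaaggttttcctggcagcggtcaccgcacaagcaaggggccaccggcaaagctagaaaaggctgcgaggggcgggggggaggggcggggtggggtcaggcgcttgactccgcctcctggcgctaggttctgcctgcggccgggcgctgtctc
Sema6c (chr3:95160170-95160419, plus strand): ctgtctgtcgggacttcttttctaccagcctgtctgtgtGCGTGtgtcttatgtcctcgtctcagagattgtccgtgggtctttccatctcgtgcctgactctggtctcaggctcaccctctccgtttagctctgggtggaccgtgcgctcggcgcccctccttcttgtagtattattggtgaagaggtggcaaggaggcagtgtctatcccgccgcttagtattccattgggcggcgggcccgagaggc
Sema3e (chr5:14025026-14025275, plus strand): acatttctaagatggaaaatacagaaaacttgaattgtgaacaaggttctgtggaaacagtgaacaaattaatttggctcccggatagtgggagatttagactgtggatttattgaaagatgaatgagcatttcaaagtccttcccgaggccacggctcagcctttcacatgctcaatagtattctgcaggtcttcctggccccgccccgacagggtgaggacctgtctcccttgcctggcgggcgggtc
Robo1 (chr16:72662899-72663148, plus strand): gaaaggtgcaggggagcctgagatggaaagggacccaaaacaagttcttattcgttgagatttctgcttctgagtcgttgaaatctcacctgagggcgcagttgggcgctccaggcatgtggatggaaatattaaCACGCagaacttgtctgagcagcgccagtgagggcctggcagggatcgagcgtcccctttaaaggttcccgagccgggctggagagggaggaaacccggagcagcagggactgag
Sema3d (chr5:12382916-12383165, plus strand): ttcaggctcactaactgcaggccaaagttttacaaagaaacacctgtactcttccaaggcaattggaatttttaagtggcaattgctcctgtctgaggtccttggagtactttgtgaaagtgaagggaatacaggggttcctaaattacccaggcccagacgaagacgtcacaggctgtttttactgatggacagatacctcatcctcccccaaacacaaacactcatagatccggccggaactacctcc
Sema6b (chr17:56140344-56140593, minus strand): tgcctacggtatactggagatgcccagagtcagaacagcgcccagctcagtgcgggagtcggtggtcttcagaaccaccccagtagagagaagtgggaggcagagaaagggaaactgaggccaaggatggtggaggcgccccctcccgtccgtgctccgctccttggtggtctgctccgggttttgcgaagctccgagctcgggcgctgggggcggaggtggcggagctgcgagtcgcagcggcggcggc

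The windows differed in base composition. Unc5b, Sema7a and Sema6b had 66.8, 66.4 and 66.0% G and C with 27, 17 and 20 CpG pairs, whereas Sema3e and Sema3d had 48.0 and 46.8% with 7 and 4. The median of the 37 guidance genes with a window was 65.2% and 16 CpG pairs, and that of all 32851 windows was 52.4% and 6. GCGTG, a core of hypoxia response elements, was found once each in the Unc5b, Sema7a, Sema6c and Robo1 windows, which include genes that rose and genes that fell. It occurs in 28.2% of all windows. The other hypoxia core ACGTG, which differs only in its first letter (16.6% of all windows), the TEAD core GGAATG (12.6%) and the AP-1 letters TGANTCA (6.75%) were found in none of the 7. These letters describe the windows and show no binding.

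At 2 dyn/cm² against static culture, class 3 semaphorins fell in 5 of 7 genes of orpk cells and rose in 1, membrane semaphorins fell in 8 of 12 and rose in 1, and Ntn4 and Sema3g rose. Of 40 tested genes 30 passed, 8 higher and 22 lower, where 62% of all tested genes passed (30.9% higher and 31.1% lower), and 9 changed by over 1 on the log2 scale (7.54% of all tested genes). The groups did not overlap in 29 genes (65.3% of all tested genes). The count was also 30 without the libraries that stood apart. Plxnb3, Plxnc1 and Sema5b, among the 8 that rose, entered the test largely through their reads at 2 dyn/cm² (59, 77 and 50). They had at most 30 reads in any other group, so the filter on low counts favoured these rises. The comparisons of 2 and of 30 dyn/cm² share their static libraries. In orpk cells at 2 dyn/cm² and in static culture, fibroblast markers summed to 20510 to 23897 and 31666 to 32678 CPM, epithelial and mesothelial markers to 158 to 171 and 297 to 301 CPM, smooth muscle and pericyte markers to 2032 to 2252 and 1507 to 1631 CPM, and neural and glial markers to 158 to 168 and 117 to 128 CPM. Their part was not tested. Sema6b, a transmembrane semaphorin, had 0.992, 0.662 and 0.805 CPM at 2 dyn/cm² and 5.63, 4.84 and 4.90 CPM in static cells (log2 fold change -2.64 ± 0.23, edgeR adjusted p = 2.49e-13). Sema4g had 6.48, 7.40 and 7.30 CPM at 2 dyn/cm² and 20.7, 21.3 and 19.5 CPM in static cells (-1.53 ± 0.10). Sema3d, Sema6a and Slit3 fell by 1.09, 1.09 and 1.10 on the log2 scale. Ntn4 rose, with 6.15, 7.52 and 5.82 CPM at 2 dyn/cm² and 3.57, 3.10 and 3.88 CPM in static cells (0.89 ± 0.14, adjusted p = 4.40e-07). Sema3g had 6.81, 7.70 and 6.68 CPM at 2 dyn/cm² and 3.99, 3.17 and 3.07 CPM in static cells (1.05 ± 0.16). In both genes every sheared library lay above every static one. Unc5b and Unc5c had log2 fold changes of 0.28 ± 0.07 and -0.35 ± 0.05.

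At 30 against 2 dyn/cm² Unc5b, Plxna4 and Sema7a of orpk cells rose and Unc5c and Robo1 fell. Of 40 tested genes 31 passed at 30 against 2 dyn/cm², 6 higher and 25 lower, where 63.6% of all tested genes passed (32.1% higher and 31.5% lower), and 17 did so by over 1 on the log2 scale (9.92% of all tested genes). The groups did not overlap in 30 genes (68.2% of all tested genes). Falls in Plxnb3, Plxnc1, Sema5b and Slit1 were favoured by the filter on low counts. These genes entered the test largely through their orpk reads at 2 dyn/cm² (59, 77, 50 and 41). Smooth muscle and pericyte markers summed to 4335 to 4431 CPM at 30 and 2032 to 2252 CPM at 2 dyn/cm², and neural and glial markers to 296 to 308 and 158 to 168 CPM, and their part was not tested. All 7 class 3 semaphorins fell, as did 6 of the 12 tested membrane semaphorins. Unc5b had 226, 226 and 229.7 CPM at 30 and 38.6, 49.1 and 47.0 CPM at 2 dyn/cm² (log2 fold change 2.33 ± 0.06, edgeR adjusted p = 6.66e-25). Unc5c had 67.7, 66.3 and 65.1 CPM at 2 dyn/cm² and changed by -2.61 ± 0.07. Plxna4 had 63.1, 64.4 and 62.7 CPM at 30 and 13.4, 12.3 and 10.2 CPM at 2 dyn/cm² (2.41 ± 0.08). Sema7a and Nrp2 rose by 1.97 and 0.74 on the log2 scale, and Robo1 and Sema5a fell by 2.25 and 1.57. Slit3 did not pass over this step (0.08 ± 0.06, adjusted p = 0.218).

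**Figure D2:**
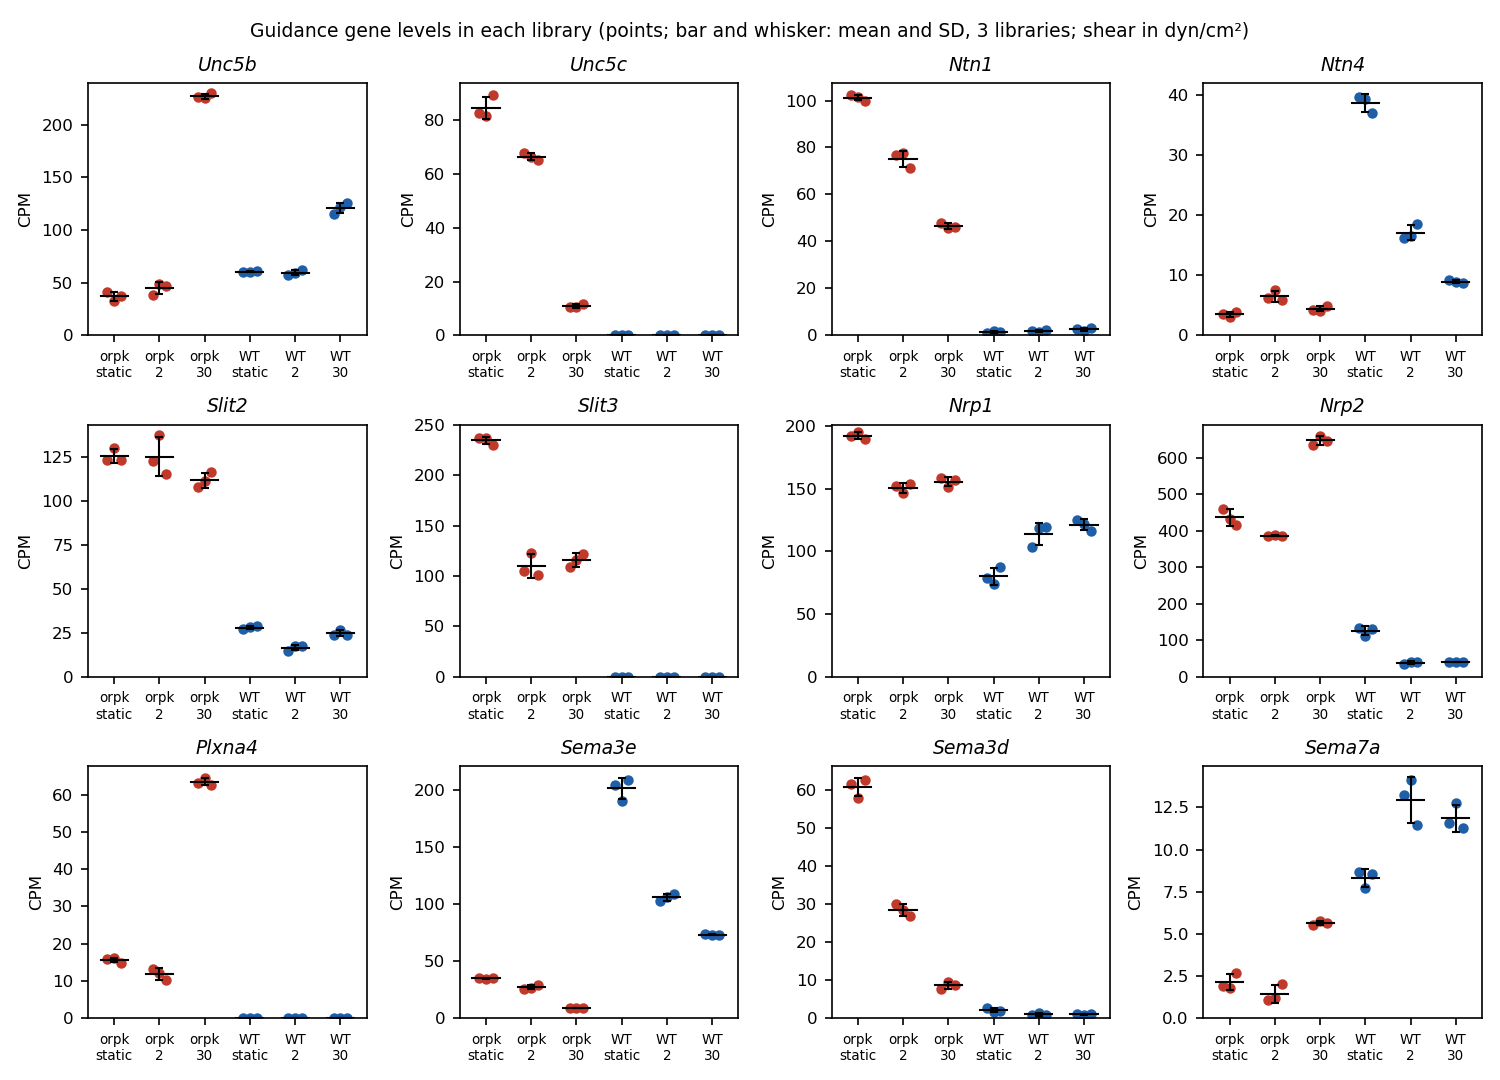
CPM of 12 guidance genes in each of the 18 libraries (points), with the group mean (bar) and SD (whisker, n = 3), orpk groups in red and WT groups in blue, shear in dyn/cm². Unc5b reaches 226 to 229.7 CPM in the orpk libraries at 30 dyn/cm² and 116 to 125 CPM in the WT libraries at that shear, while Unc5c, Slit3 and Plxna4 are at or near 0 in WT.

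In WT cells most class 3 semaphorins fell at 30 dyn/cm² against static culture, Unc5b, Nrp1 and Sema3g rose, and Nrp2 and Ntn4 fell. Of 40 tested genes 25 passed, 7 higher and 18 lower, where 66.9% of all tested genes passed (34.1% higher and 32.7% lower), and 11 did so by over 1 on the log2 scale (9.72% of all tested genes). The groups did not overlap in 26 genes (71.1% of all tested genes). The median log2 fold change was -0.59 over the 40 genes and 0.00 over all tested genes. The 40 include Plxna4, Robo1, Robo2, Sema5a, Sema5b, Slit3 and Unc5c, which had at most 4 reads in any WT group. They entered the test through their orpk reads, so a change within WT cells could hardly be called for them. This limits the counts and medians of every comparison within WT cells. Smooth muscle and pericyte markers summed to 121 to 134 CPM at 30 dyn/cm² and 51.9 to 54.9 CPM in static WT cells, neural and glial markers to 98.6 to 107 and 54.2 to 55.9 CPM, and fibroblast markers to 1143 to 1150 and 982 to 1047 CPM. Macrophage and leukocyte markers summed to 17.5 to 19.4 and 50.2 to 57.4 CPM, and epithelial and mesothelial markers to 432 to 457 and 556 to 575 CPM. Of the 8 tested epithelial and mesothelial markers 3 rose and 4 fell, against the shares of all tested genes above. Krt19 had means of 16.2 CPM at 30 dyn/cm² and 162 CPM in static WT cells, and Krt8 had 197 and 149 CPM. The part of these markers was not tested. Class 3 semaphorins fell in 5 of 7 genes and rose in 1, and membrane semaphorins fell in 5 of 12 and rose in 2.

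Sema3e had 74.0, 72.7 and 73.3 CPM at 30 dyn/cm² and 205, 191 and 209 CPM in static WT cells (log2 fold change -1.46 ± 0.04, edgeR adjusted p = 9.83e-30). Sema3a had 84.1, 85.7 and 85.2 CPM at 30 dyn/cm² and 188, 192 and 179.5 CPM in static cells (-1.13 ± 0.04). Sema3f had 59.4, 57.1 and 58.4 CPM at 30 dyn/cm² and 127, 125 and 127 CPM in static cells (-1.12 ± 0.05). Each of these 3 ligands fell by over 1 on the log2 scale, and the groups did not overlap. Sema4d, the ligand of plexin B1, had 73.8, 68.4 and 69.4 CPM at 30 dyn/cm² and 119.9, 114 and 118 CPM in static cells (-0.74 ± 0.05), and Plxnb1 itself fell by 0.31 on the log2 scale. Sema3g was the class 3 ligand that rose, with 4.79, 6.05 and 6.01 CPM at 30 dyn/cm² and 1.31, 2.24 and 2.18 CPM in static cells (1.55 ± 0.18, adjusted p = 5.88e-10).

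Of the receptors in WT cells, Nrp2 had 40.1, 39.4 and 41.6 CPM at 30 dyn/cm² and 135, 112 and 131 CPM in static cells (log2 fold change -1.64 ± 0.06, edgeR adjusted p = 3.93e-21). Nrp1, the receptor shared by Sema3a and vascular endothelial growth factor A, had 125, 122 and 116 CPM at 30 dyn/cm² and 78.6, 74.0 and 87.6 CPM in static cells (0.59 ± 0.05, adjusted p = 4.58e-13). The 2 neuropilins therefore moved in opposite directions, Nrp2 down and Nrp1 up. Unc5b had 116, 122 and 125 CPM at 30 dyn/cm² and 60.4, 60.0 and 61.2 CPM in static cells (1.00 ± 0.06, adjusted p = 1.35e-15). Ntn4 had 9.17, 8.88 and 8.66 CPM at 30 dyn/cm² and 39.7, 39.3 and 37.0 CPM in static cells (-2.12 ± 0.08). The sheared libraries lay above the static ones for Unc5b and below them for Ntn4. Ntn1 was low but rose, with 2.64, 1.94 and 3.20 CPM at 30 dyn/cm² and 1.04, 1.75 and 1.55 CPM in static cells (0.84 ± 0.21, adjusted p = 5.10e-04). Robo3, a divergent Robo, had 51 reads over the libraries at 30 dyn/cm² and 2 over the static ones, both in replicate 2, a ratio of 22.7 (95% exact interval 5.97 to 192).

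At 2 dyn/cm² against static culture, class 3 semaphorins fell in 5 of 7 genes of WT cells and rose in 2, membrane semaphorins fell in 6 of 12 and rose in 2, Nrp2 and Ntn4 fell and Nrp1 rose. Of 40 tested genes 26 passed, 7 higher and 19 lower, where 62.9% of all tested genes passed (32.6% higher and 30.3% lower), and 6 did so by over 1 on the log2 scale (6.44% of all tested genes). The groups did not overlap in 26 genes (64.3% of all tested genes). The count was 25 without the libraries that stood apart, and Plxna3 was the gene lost (log2 fold change -0.15, and -0.06 without them). In WT cells at 2 dyn/cm² and in static culture, epithelial and mesothelial markers summed to 356 to 379 and 556 to 575 CPM, neural and glial markers to 84.5 to 92.1 and 54.2 to 55.9 CPM, fibroblast markers to 710 to 735 and 982 to 1047 CPM, and smooth muscle and pericyte markers to 65.7 to 73.7 and 51.9 to 54.9 CPM. Of the 8 tested epithelial and mesothelial markers 1 rose and 4 fell, against the shares of all tested genes above. The part of these marker lists was not tested. Nrp2 had 35.3, 40.0 and 41.2 CPM at 2 dyn/cm² (log2 fold change against static -1.70 ± 0.06, edgeR adjusted p = 3.23e-21), and Nrp1 had 104, 119 and 119 CPM (0.50 ± 0.05). Sema3e had 103, 106 and 109 CPM (-0.93 ± 0.04), and Sema4d had 59.7, 59.3 and 64.3 CPM (-0.94 ± 0.05). Ntn4 had 16.2, 16.5 and 18.4 CPM (-1.18 ± 0.07). None of these genes overlapped its static libraries given above. Unc5b had 57.0, 59.0 and 61.9 CPM, overlapping the static libraries, and did not pass (-0.03 ± 0.06, adjusted p = 0.703). Sema3c, a ligand of neuropilins in heart outflow tract development, rose by 0.47 on the log2 scale.

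At 30 against 2 dyn/cm² in WT cells Unc5b was the only one of the 40 genes with a called change of over 1 (log2), where 2.4% of all tested genes did. In all 18 passed over this step, 7 higher and 11 lower, where 33.1% of all tested genes passed (15.9% higher and 17.2% lower), and the groups did not overlap in 18 (42.9%). The count was 20 without the libraries that stood apart. Macrophage and leukocyte markers summed to 17.5 to 19.4 CPM at 30 and 49.7 to 53.0 CPM at 2 dyn/cm², smooth muscle and pericyte markers to 121 to 134 and 65.7 to 73.7 CPM, and fibroblast markers to 1143 to 1150 and 710 to 735 CPM, and their part was not tested. Unc5b changed by 1.03 ± 0.06 (edgeR adjusted p = 2.93e-15), Ntn4 by -0.94 ± 0.09, Slit2 by 0.57 ± 0.08 and Sema3e by -0.53 ± 0.04. Slit2 had 23.6, 26.7 and 24.0 CPM at 30, 14.8, 17.4 and 17.8 CPM at 2 and 27.3, 28.1 and 28.7 CPM in static WT cells. It was thus lowest at 2 dyn/cm², with no overlap between those libraries and either of the other groups. Nrp2 did not pass over this step (0.06 ± 0.06, adjusted p = 0.552).

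**Figure D3:**
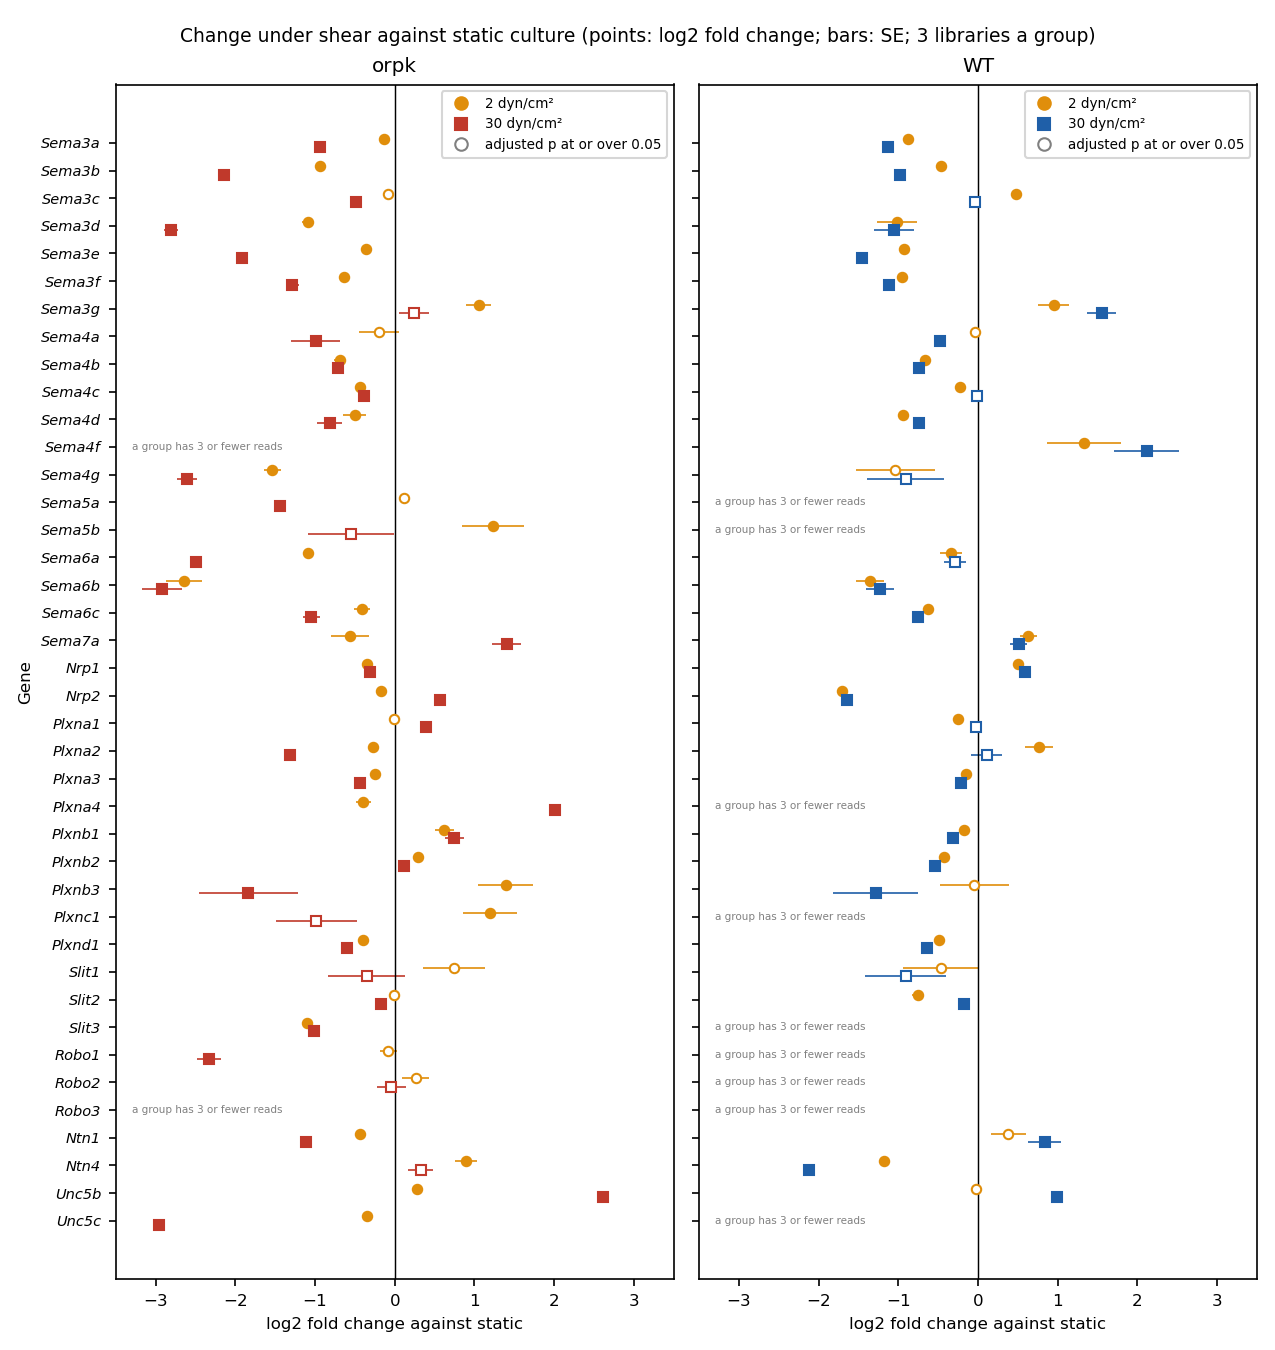
Log2 fold change against static culture (points) with its SE (bars) at 2 dyn/cm² (circles) and 30 dyn/cm² (squares) in orpk cells (left) and WT cells (right), for each tested guidance gene with over 3 reads in the groups compared. Filled points passed the threshold. Both panels lean to the left for semaphorins, and Unc5b stands to the right at 30 dyn/cm² in both.

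Whether orpk and WT cells responded differently was tested as the difference between their changes, orpk change minus WT change. Unc5b rose more in orpk cells, Nrp2 rose in orpk and fell in WT cells, and Nrp1 and Ntn1 fell in orpk and rose in WT cells. For 30 dyn/cm² against static the difference passed in 21 of 40 tested genes, 8 positive and 13 negative, where 57.5% of all tested genes passed (30.6% positive and 26.9% negative). It was over 1 in 12 (12.5% of all tested genes). The 21 are all among the 30 genes with over 3 reads in all 4 groups. In 5 of the 21 the changes were called in opposite directions: Nrp2, Nrp1, Ntn1, Plxnb1 and Plxnb2. The orpk change of Plxnb2 was small (0.12 ± 0.04) and was not called with DESeq2's size factors (0.08). At 30 dyn/cm² 14 of the 40 genes were lower than in static cells in both genotypes, where 15.5% of all tested genes were. Unc5b, Sema7a and Sema4f were higher in both, where 18.6% of all tested genes were. The 14 are Sema3a, Sema3b, Sema3d, Sema3e, Sema3f, Sema4b, Sema4d, Sema6b, Sema6c, Plxna3, Plxnd1, Sema4a, Slit2 and Plxnb3. The WT call for Slit2 was lost without static replicate 2 or 3 or replicate 1 or 3 at 30 dyn/cm² (-0.15 to -0.18). It was also lost with library totals as the scaling (-0.09). The WT call for Plxnb3 was lost without static replicate 1 or 3 or replicate 1 or 2 at 30 dyn/cm² (-1.05 to -1.32). It was also lost with DESeq2 (-1.33) and with no filter on low counts (-1.28). The orpk call for Plxnb3 was lost without static replicate 3 (-1.39).

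The change in Nrp2 was 0.57 in orpk and -1.64 in WT cells, a difference of 2.21 ± 0.07 (edgeR adjusted p = 2.31e-21). That in Nrp1 was -0.31 in orpk and 0.59 in WT cells (difference -0.90 ± 0.07, adjusted p = 5.26e-14). Each neuropilin thus moved in opposite directions in the genotypes. Unc5b changed by 2.62 in orpk and 1.00 in WT cells (difference 1.62 ± 0.09, adjusted p = 2.75e-16). Ntn1 changed by -1.12 in orpk and 0.84 in WT cells (difference -1.96 ± 0.21), and Ntn4 by 0.33 in orpk and -2.12 in WT cells (difference 2.45 ± 0.18). The gap between orpk and WT cells in each netrin was smaller at 30 dyn/cm² (log2 fold changes 4.16 for Ntn1 and -1.01 for Ntn4) than in static cells (6.12 and -3.46). Among semaphorins, Sema6a changed by -2.50 in orpk and -0.29 in WT cells (difference -2.21 ± 0.16), and Sema3d by -2.81 in orpk and -1.05 in WT cells (difference -1.76 ± 0.29). For Sema4b, Sema4d and Plxnd1 the differences were 0.03 ± 0.09, -0.08 ± 0.17 and 0.04 ± 0.06 and missed the threshold (edgeR adjusted p = 0.824, 0.712 and 0.635).

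**Figure D4:**
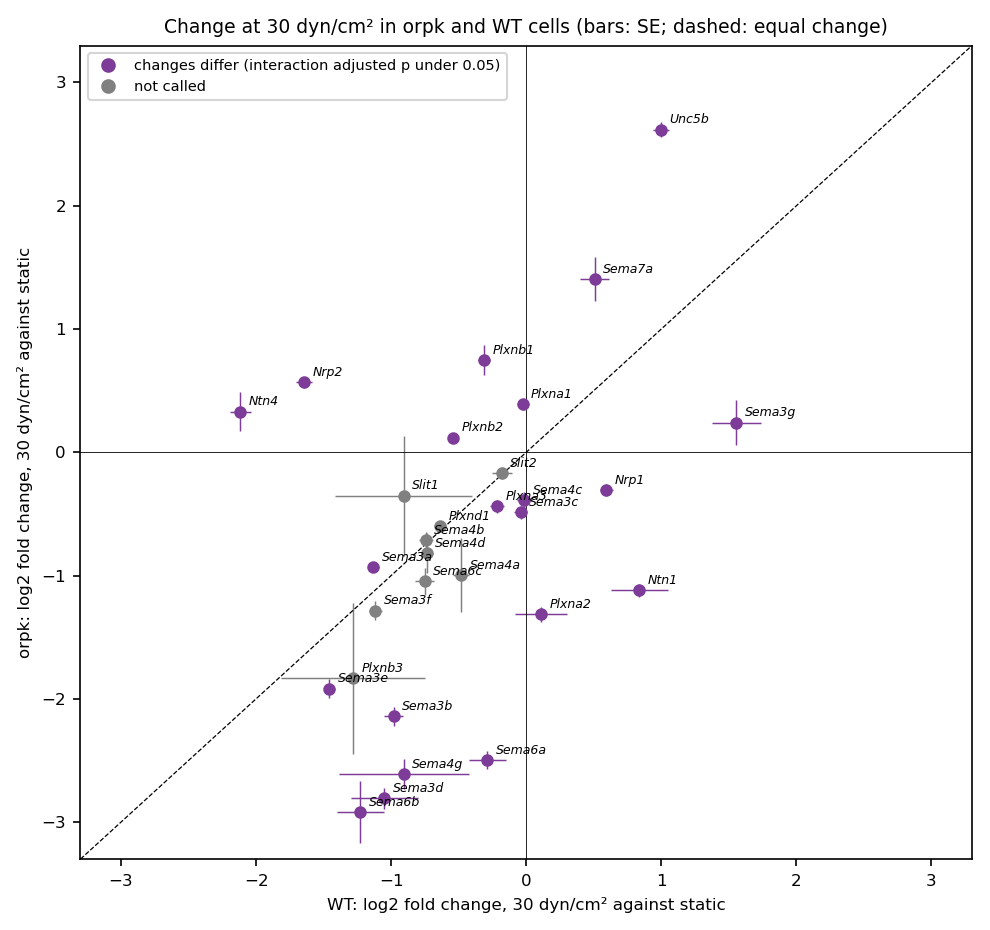
Log2 fold change at 30 dyn/cm² against static culture in WT cells (x axis) and orpk cells (y axis) for the 30 tested guidance genes with over 3 reads in all 4 groups, with SE bars. Purple points passed the test of the difference and the dashed line marks equal change. Unc5b lies far above the line in the upper right, Nrp2 and Ntn4 lie upper left, and Nrp1 and Ntn1 lie lower right.

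At 2 dyn/cm² against static the difference passed in 21 of 40 tested genes, 12 positive and 9 negative, where 52.6% of all tested genes passed (27.1% positive and 25.4% negative), and 20 passed without the libraries that stood apart. It was over 1 in 6 (7.83% of all tested genes). Ntn4 changed by 0.89 in orpk and -1.18 in WT cells (difference 2.07 ± 0.15, edgeR adjusted p = 6.81e-15). Sema7a changed by -0.56 in orpk and 0.63 in WT cells (difference -1.19 ± 0.26, adjusted p = 1.76e-04), although its orpk change alone was not called without static replicate 3, or replicate 1 or 2 at 2 dyn/cm² (-0.37, -0.40 and -0.44). In WT cells Sema7a had 13.2, 14.1 and 11.4 CPM at 2 dyn/cm² and 8.68, 7.70 and 8.56 CPM in static cells, a rise with no overlap. For 30 against 2 dyn/cm² the difference passed in 16 of 40 genes, 4 positive and 12 negative, where 46.5% of all tested genes passed (25% positive and 21.5% negative), and 18 passed without those libraries. It was over 1 in 8 (6.1% of all tested genes). Sema7a had the largest positive one, 2.09 ± 0.22 (adjusted p = 1.12e-10), and Unc5b one of 1.31 ± 0.08. Slit2 changed by -0.16 in orpk and 0.57 in WT cells (difference -0.74 ± 0.09), and its orpk change was not called without orpk replicate 2 at 2 dyn/cm² (-0.09).

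Between the genotypes the guidance repertoire differed at every shear, and Slit3, Unc5c, Sema5a, Plxna4 and Robo1 had at most 4 reads in any WT group. In static cells 33 of 40 tested genes passed for orpk against WT, 20 higher and 13 lower, where 87.8% of all tested genes passed (44.4% higher and 43.4% lower). At 2 dyn/cm² 40 of 40 passed, 24 higher and 16 lower (87.5% of all tested genes, 44.6% higher and 42.9% lower), and 39 did without the libraries that stood apart. The 24 include Plxnb3, Plxnc1, Sema5b and Slit1. These entered the test largely through their orpk reads at 2 dyn/cm² (59, 77, 50 and 41). The filter on low counts thus favoured their being higher there. At 30 dyn/cm² 38 of 40 passed, 21 higher and 17 lower (86.9% of all tested genes, 44.9% higher and 42% lower). The groups did not overlap in 34, 39 and 37 genes at static, 2 and 30 dyn/cm² (88.1%, 86.8% and 88.6% of all tested genes). A difference of over 1 on the log2 scale was called in 25, 29 and 26 of the 40 at static, 2 and 30 dyn/cm², where 40.3%, 37.2% and 39.1% of all tested genes had one. The median absolute log2 fold change in static cells was 2.34 over the 40 genes and 0.75 over all tested genes. Over the 3 shears 18 of the 40 genes were higher in orpk each time (34.6% of all tested genes) and 12 lower each time (32.3% of all tested genes), and the other 10 were not. The 18 include Plxna4, Plxnc1, Robo1, Robo2, Sema5a, Sema5b, Slit3 and Unc5c, with 1 to 18 reads over the 9 WT libraries. They entered the test through their orpk reads, so the filter on low counts favoured their being higher in orpk. The counts and the median absolute change above also cover them. Among the 30, the call for Plxnc1 at 30 dyn/cm² was lost without orpk replicate 3 or WT replicate 1 or 3 (0.35, 1.28 and 1.53), that for Sema5b at 30 dyn/cm² without WT replicate 2 (1.70), and that for Sema4c in static cells without any of the 6 static libraries (-0.11 to -0.14). The Plxnc1 call was also lost with library totals (1.25). The Sema4c call was also lost with DESeq2, its size factors in edgeR, no filter on low counts, or the compared groups alone (-0.09 to -0.12). It was lost too without WT replicate 3 at 30 dyn/cm² (-0.13). Fibroblast, smooth muscle and epithelial markers also differed between the genotypes, as given above, and their part was not tested.

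Slit3 had 10138 reads over the static orpk libraries and 0 over the static WT libraries, so it was at least 3680-fold higher when the WT group is set to 3 reads in all. At 2 and 30 dyn/cm² it had 5259 and 4662 reads in orpk, against 1 and 2 reads in WT. Slit2, the other abundant Slit, was present in both, with 123, 130.2 and 123 CPM in static orpk and 27.3, 28.1 and 28.7 CPM in static WT cells (log2 fold change 2.16 ± 0.06, edgeR adjusted p = 1.81e-29). Of their receptors, Robo1 had 444, 465 and 82 reads in orpk at static, 2 and 30 dyn/cm², against 1, 0 and 0 reads in WT. Robo2 had 160, 214 and 145 reads in orpk, against 1, 0 and 0 in WT. WT cells thus had Slit2 with next to no Robo1 or Robo2. Robo3 went the other way under flow, with 0 and 1 reads in orpk at 2 and 30 dyn/cm², against 47 and 51 in WT.

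Netrin genes split between the genotypes. Ntn1 was 69.6-fold higher in static orpk cells, with the values above for orpk and 1.04, 1.75 and 1.55 CPM in WT (log2 fold change 6.12 ± 0.10, edgeR adjusted p = 1.00e-39). Ntn4 went the other way, with 3.57, 3.10 and 3.88 CPM in static orpk and 39.7, 39.3 and 37.0 CPM in static WT cells (-3.46 ± 0.10). Unc5c had 3645 reads in static orpk cells and 1 in static WT cells, a ratio of 3970 (95% exact interval 712 to 156840). At 30 dyn/cm² it had 436 reads in orpk and 0 in WT, so it was at least 191-fold higher. Unc5b differed in direction between the shears. It was lower in orpk than in WT in static cells (-0.71 ± 0.07) and at 2 dyn/cm² (-0.40 ± 0.06), and higher in orpk at 30 dyn/cm² (0.91 ± 0.05, adjusted p = 1.83e-16). With library totals as the scaling these values at 2 and 30 dyn/cm² were -0.62 and 0.60, in the same directions.

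Among semaphorin receptors, Plxna4 had 677, 571 and 2553 reads in orpk at static, 2 and 30 dyn/cm², against 2, 0 and 1 in WT. Plxna2 had 95.9, 102 and 102 CPM in static orpk and 2.61, 1.61 and 3.16 CPM in static WT cells (log2 fold change 5.31 ± 0.10, edgeR adjusted p = 6.46e-38). Plxnb1 was lower in orpk cells, with 6.06, 6.07 and 6.59 CPM in static orpk and 182, 173 and 183 CPM in static WT cells (-4.85 ± 0.07). Its ligand Sema4d had 5.42, 4.84 and 4.47 CPM in static orpk and 119.9, 114 and 118 CPM in static WT cells (-4.58 ± 0.07). Ligand and receptor were both lower in every orpk library than in any WT library. Nrp2 was higher in orpk at static, 2 and 30 dyn/cm², by 1.79, 3.32 and 4.0 on the log2 scale, and Nrp1 by 1.26, 0.40 and 0.36. With library totals as the scaling the Nrp1 values at 2 and 30 dyn/cm² were 0.18 and 0.05, and that at 30 dyn/cm² was not called.

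Semaphorin ligands were divided. Sema5a had 2390 reads in static orpk cells and 1 in static WT cells, and 819 and 0 at 30 dyn/cm². Sema3d had 2.74, 1.61 and 2.01 CPM in static WT cells, below each orpk library given above (4.83 ± 0.11, edgeR adjusted p = 1.14e-34). Sema6a and Sema4g were also higher in static orpk cells (3.55 ± 0.08 and 5.43 ± 0.18). Sema4a, a membrane semaphorin with roles in immune cells, had 1.14, 1.61 and 1.24 CPM in static orpk and 36.6, 40.9 and 38.9 CPM in static WT cells (-4.84 ± 0.12). Sema3e and Sema3f were lower in static orpk cells (-2.52 ± 0.05 and -1.89 ± 0.06). Sema3a did not differ past the threshold in static cells (-0.03 ± 0.04, adjusted p = 0.390), and its difference at 30 dyn/cm² changed sign with the scaling, from 0.17 as reported to -0.15 with library totals.

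The remaining genes were low or moved little. Slit1, Plxnb3, Plxnc1, Sema4f, Sema5b and Robo3 stayed under 2 CPM in every library. Sema4f entered the test largely through WT cells at 30 dyn/cm² (60 reads), and Robo3 through WT cells at 2 and 30 dyn/cm² (47 and 51). The filter thus favoured high levels of each in those groups. Plxna1, Plxna3, Sema4c and Sema3c had absolute log2 fold changes of at most 0.78 in the 9 comparisons between groups. Reads of 10 of the 45 genes could include those of an overlapping gene. The use of strand in counting and the treatment of shared reads are not given in the sources used here. For 7 of the 10 the overlap is on the opposite strand. For 3 (Nrp1, Plxnc1 and Sema4a) it is on the same strand, where counting by strand would not separate the genes. Of the 10, those with values above are Nrp1, Plxna1, Plxna4, Plxnb1, Plxnc1, Sema4a, Sema4c and Unc5c.

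Partners of these genes were described from lists of known coreceptors, ligands and effectors. At 30 dyn/cm² against static, 36.5% of all tested genes rose and 33.3% fell in orpk cells, with a median log2 fold change of 0.02. In WT cells 34.1% rose and 32.7% fell, with a median of 0.00. Vascular endothelial growth factor genes, their receptors and a neuropilin-binding adaptor made up one list. Of 8 tested, 5 fell and 3 rose in orpk cells at 30 dyn/cm² against static, with a median log2 fold change of -0.42, and 5 fell and 1 rose in WT cells, with a median of -1.50. Vegfa, the main growth factor for vessels, changed by -0.34 ± 0.03 in orpk and -2.89 ± 0.04 in WT cells (edgeR adjusted p = 6.79e-12 and 2.72e-41), and its difference between the genotypes was 2.54 ± 0.05 (adjusted p = 2.49e-34). At 30 dyn/cm² 8 of the 8 were higher in orpk than in WT, where 44.9% of all tested genes were. The receptor Flt1 had a mean of 127 CPM in orpk and 16.4 CPM in WT at that shear (2.95 ± 0.06).

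Of 17 tested guidance coreceptors and relatives, 4 rose and 9 fell in orpk cells at 30 dyn/cm² against static, and 2 rose and 8 fell in WT cells. Their medians were -0.31 in orpk and -0.30 in WT cells, against the shares and medians over all tested genes given above. Flrt2, a membrane protein that binds Unc5 receptors, changed by 1.08 ± 0.04 in orpk and -0.21 ± 0.08 in WT cells. L1cam, an adhesion protein that joins neuropilin 1 in Sema3a signalling, changed by 1.08 ± 0.27 in orpk and -1.72 ± 0.05 in WT cells, and was far lower in orpk than in WT static cells (-7.37 ± 0.11). L1cam was low in orpk cells, with means of 1.32 CPM in static culture and 2.79 CPM at 30 dyn/cm², against 219 and 66.4 CPM in WT cells. The netrin receptors Dcc and neogenin (Neo1), named here after their values were seen, differed in level. Dcc had 113 reads over all 18 libraries, whereas Neo1 had group means of 151, 195 and 207 CPM in orpk at static, 2 and 30 dyn/cm², and 156, 121 and 127 CPM in WT. Neo1 rose in orpk cells at 30 dyn/cm² (0.45 ± 0.05) and fell in WT cells (-0.30 ± 0.05), a difference of 0.76 ± 0.06 (edgeR adjusted p = 7.24e-13).

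Of 31 tested plexin effectors, 17 rose and 6 fell in orpk cells at 30 dyn/cm² against static (median log2 fold change 0.15), and 9 rose and 13 fell in WT cells (median -0.04). Over all tested genes 36.5% rose and 33.3% fell in orpk cells, and 34.1% and 32.7% in WT cells, which is the background for every count of effectors, proteases and ephrins here. Mical2, an actin oxidase, and Rnd1, a small GTPase that binds plexins, rose in orpk cells (1.52 ± 0.04 and 1.10 ± 0.08). In WT cells the mean of Rnd1 was also higher at 30 dyn/cm² (20.7 CPM) than in static culture (13.4 CPM). That of Mical2 was lower there (199 and 241 CPM). Of 21 tested Slit, Robo and netrin effectors, 10 rose and 6 fell in orpk cells (median 0.08), and 5 rose and 11 fell in WT cells (median -0.14). Srgap3, a Slit-Robo GTPase-activating protein, changed by -2.22 ± 0.06 in orpk and -1.43 ± 0.21 in WT cells. It was low in WT cells, with means of 2.91 CPM in static culture and 1.08 CPM at 30 dyn/cm², against 78.0 and 16.8 CPM in orpk cells. Of 7 tested proteases that process semaphorins, 2 rose and 4 fell in orpk cells, and 3 rose and 3 fell in WT cells (medians -0.49 and -0.02). Of 17 tested ephrins and Eph receptors, another guidance family, 8 rose and 6 fell in orpk cells (median 0.02), and 7 rose and 3 fell in WT cells (median 0.23).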

How the data were processed

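Poly(A) RNA of 18 libraries was sequenced as single-end reads from stranded libraries, per the labels' protocols. The authors deposited 1 table of raw counts per Ensembl gene, and the submitters' processing notes name CASAVA 1.8.2, STAR 2.4, featureCounts 1.4.6 and GRCm38. The strand setting and the treatment of shared reads are not given in the sources used here.

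Counts were fitted with edgeR 4.0.16 (limma 3.58.1, R 4.3.3) by its robust quasi-likelihood test, with filterByExpr, TMM scaling and 6 group means over all 18 libraries (12 residual degrees of freedom). P-values were adjusted by Benjamini-Hochberg over 13058 genes in each of 12 comparisons, with a threshold of 0.05. CPM uses TMM-scaled totals. The depth, within a ratio of 1.28, limits genes of a few reads, so folds against groups of 0 reads use a floor of 3 reads per group, and 95% exact intervals cover counting error only. Gene loci are from GENCODE M21 on GRCm38, and symbols matched 21583 of 21647 rows. The procedure was tested on simulated counts in which few genes changed, in 1 group only. Most genes change in these data, so that test does not show how the scaling behaves here.

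Every family member could be named. Values in every library were given mainly for genes with at least 5 CPM in a group and a called log2 fold change above 1. In the partner lists a few genes with called changes were named, and these are not always the largest changes of a list. Flrt1, for example, had means of 25.2 CPM in WT static cells and 2.31 CPM in WT cells at 30 dyn/cm². Members and lists were chosen with earlier results of these data known.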

Additional observations from a re-analysis of the deposited data

Results flagged for a closer look

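Differences of over 1 on the log2 scale between the flow response of orpk cells and that of WT cells, called by edgeR's test of the difference itself, are collected here as orpk change minus WT change. They cover genes with over 3 reads in all 4 groups concerned.

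For 30 dyn/cm² against static culture the positive differences were those of Ntn4 (2.45), Nrp2 (2.21), Unc5b (1.62) and Plxnb1 (1.06). Ntn4 is a basement membrane netrin, Nrp2 a semaphorin coreceptor, Unc5b a netrin receptor and Plxnb1 the Sema4d receptor. The negative ones were those of Sema6a (-2.21), Ntn1 (-1.96), Sema3d (-1.76), Sema4g (-1.70), Sema6b (-1.69), Plxna2 (-1.42), Sema3g (-1.31) and Sema3b (-1.16). Of these 8, Ntn1, a secreted netrin, fell in orpk and rose in WT cells. Sema4g had under 1 CPM in every WT library, and its difference was not called without WT replicate 3 at 30 dyn/cm² (-1.42, edgeR adjusted p = 0.0875).

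For 2 dyn/cm² against static culture the differences were 2.07 for Ntn4, 1.53 for Nrp2, 1.44 for Plxnb3, -1.03 for Plxna2, -1.19 for Sema7a and -1.29 for Sema6b. Plxnb3, a plexin of class B, stayed under 2 CPM in every library, and its difference was not called without orpk static replicate 1 or 2, WT static replicate 1 or 3, or WT replicate 2 or 3 at 2 dyn/cm² (1.13 to 1.39). Nor was it called with DESeq2 (1.44, adjusted p = 0.0911) or with no filter on low counts in edgeR (1.44, adjusted p = 0.0548). Plxnb3 entered the test largely through orpk cells at 2 dyn/cm² (59 reads). That favoured this difference and the one for 30 against 2 dyn/cm² below.

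For 30 against 2 dyn/cm² they were 2.09 for Sema7a, 1.31 for Unc5b, -1.02 for Sema3e, -1.15 for Ntn1, -1.42 for Sema3g, -1.46 for Sema6a, -1.68 for Sema3d and -2.0 for Plxnb3. The last was not called with DESeq2 (-2.05, adjusted p = 0.0810), with no filter on low counts in edgeR (-2.0, adjusted p = 0.0792), or without any 1 of 8 libraries (-1.72 to -1.96). These were orpk replicates 2 and 3 and WT replicates 2 and 3 at 2 dyn/cm², and orpk replicates 1 and 2 and WT replicates 1 and 3 at 30 dyn/cm². The differences at the 3 steps share groups of libraries, so they are not independent of one another.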

How the results depend on the processing

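The number of guidance genes called in each of the 12 comparisons stayed within 1.5 times its value under all 25 settings tried. These were DESeq2, its size factors (RLE), library totals as scaling, no filter on low counts, the compared groups alone, the replicate block, each library left out in turn, and both libraries that stood apart left out. With 1 library left out, the counts ran from 29 to 31, 33 to 34 and 28 to 31 in orpk cells for 2 against static, 30 against static and 30 against 2 dyn/cm², and from 24 to 26, 23 to 26 and 14 to 19 in WT cells. For orpk against WT they ran from 32 to 33, 39 to 40 and 37 to 38 at static, 2 and 30 dyn/cm², and for the differences of the responses from 19 to 22, 20 to 23 and 14 to 18. Of 480 results for single genes 332 were called, and 39 of these lost the call under at least 1 setting. The cause was not tested. Sema3a, orpk against WT at 30 dyn/cm², reversed to -0.15 with library totals. Library totals moved the median of all tested genes by over 0.1 (log2) in 5 of the 12 comparisons: orpk at 30 against 2 dyn/cm², WT at 2 dyn/cm² against static, and orpk against WT at each shear, most at 30 dyn/cm² (0.04 with TMM, -0.28 with totals), and directions there are relative to that shift. The replicate numbers did not pair the libraries: over 45 same-numbered pairs of libraries the correlation of deviations from group means ran from -0.087 to 0.117, and 6 of 18 libraries correlated best with their own number. With the replicate block Sema4f at 30 against 2 dyn/cm² in WT cells lost its call (0.78, adjusted p = 0.0568), giving 17 genes against 18, and it changed no other call. Depth limits the genes with few reads.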
